A study of Mus musculus with 8 samples.

Results

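*Clu*, *Apoe* and 5 of the receptors that take up or route their proteins were followed across the resting and proliferative zones of the mouse growth plate. The members were found by gene symbol and joined to the counts by Ensembl identifier, which gave 7 genes of 43629 in the count table, of which 17492 had a count in any library. They had been picked with their difference between the zones known, so their zone values are given as a description, without a test. Gene coordinates are on GRCm38 with the GENCODE M21 annotation. There were 4 mice, 2 males (numbers 1 and 2) and 2 females (6 and 13). From each came 1 resting zone (R) and 1 proliferative zone (P) library, so n = 4 per zone wherever a zone's mean ± SD is given, and a library is named by its zone and mouse, R6 being that of the resting zone of mouse 6.

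All mice carried *Axin2CreERT2* and *R26RTdTomato* and received tamoxifen on 3 days, postnatal days 23 to 25, so that the Cre recombinase driven by *Axin2* switched on a red fluorescent protein in *Axin2*-expressing cells and their descendants. They were sacrificed at postnatal day 30. Resting zone libraries were made from TdTomato-positive resting chondrocytes and proliferative zone libraries from unlabeled chondrocytes that lay at least 50 μm from the secondary ossification center, the bone center next to the resting zone. The sample labels name tibiae, and the study's methods name the femur and the tibia. Both were taken by laser microdissection of frozen 8 μm sections, so a library holds whatever lay in the cut area. No label of the proliferative zone other than its position, shape and lack of fluorescence was used.

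Clusterin, the product of *Clu*, is a secreted chaperone that binds unfolded proteins and lipids outside the cell. Apolipoprotein E, the product of *Apoe*, carries cholesterol and phospholipids between cells. Both are ligands of receptors of the low-density lipoprotein (LDL) receptor family, such as the large endocytic receptor LRP1 and the related *Lrp8* (ApoER2) and *Vldlr* products, and both can be bound by sorting receptors of the VPS10 family, of which *Sorl1* (SorLA) and *Sort1* (sortilin) move cargo between the Golgi, the cell surface and endosomes. In the growth plate, resting chondrocytes act as a reserve that feeds the columns of flattened proliferative chondrocytes, and *Clu* and *Sorl1* are known as markers of resting chondrocytes.

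The RefSeq promoter table, on the GRCm38.p6 build, held 5 of the 7 genes. The 250 bases before the start site are shown for *Apoe* and *Sorl1*, which were high in the resting zone, and for *Vldlr*, whose zones overlapped. Each is written 5′ to 3′ on the strand of the gene, at chr7:19699189-19699438 (minus strand), chr9:42124298-42124547 (minus strand) and chr19:27216234-27216483 (plus strand). Capitals mark a GC box (GGGCGG, searched on both strands).
Apoe: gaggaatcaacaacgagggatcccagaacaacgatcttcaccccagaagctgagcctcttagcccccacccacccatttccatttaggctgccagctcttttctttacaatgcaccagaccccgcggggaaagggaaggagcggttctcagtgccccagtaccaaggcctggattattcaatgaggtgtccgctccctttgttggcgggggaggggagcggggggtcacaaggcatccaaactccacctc
Sorl1: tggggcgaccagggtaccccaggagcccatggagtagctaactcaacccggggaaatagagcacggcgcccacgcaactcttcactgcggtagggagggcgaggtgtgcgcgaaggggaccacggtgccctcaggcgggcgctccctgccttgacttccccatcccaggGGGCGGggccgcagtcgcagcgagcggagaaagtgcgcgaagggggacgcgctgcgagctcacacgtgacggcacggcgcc
Vldlr: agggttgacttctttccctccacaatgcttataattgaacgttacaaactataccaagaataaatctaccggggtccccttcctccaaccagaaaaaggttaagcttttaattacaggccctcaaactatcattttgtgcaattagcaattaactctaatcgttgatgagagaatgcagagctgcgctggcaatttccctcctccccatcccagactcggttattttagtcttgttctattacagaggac
The GC content of these windows was 57.2%, 69.6% and 41.6%. A GC box was found in *Sorl1*, 81 to 76 bases before the start, and also in *Lrp1*, 99 to 94 bases before it, where its letters stand on the other strand. Of all 32851 windows of this length, 32.7% held one. The CCAAT box, which 33.8% of all windows held, had no match in the 5 windows. Neither had the TATA box (TATAAA, 12.4% of all windows). The AP-1 site (TGANTCA, 6.75%) also had none. A match of letters is a description and does not show a bound site.

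Few reads were counted on genes. The R libraries held 192882 to 462044 counts on genes and the P libraries 249284 to 631474, and values are given as CPM, which are counts scaled by each library's total and TMM factor. A fixed limit of 3 counts was used, at or under which a value was treated as too low to measure. It came to 5.97 to 14.7 CPM in the resting zone and 4.81 to 12.4 CPM in the proliferative zone. Intervals and limits cover counting error at most, since counts of amplified RNA are not independent. Among the resting zone libraries that of mouse 6 had the most chondrocyte marker counts, and among the proliferative zone libraries that of mouse 1 had the most counts of bone and blood cell markers, so both were also left out together as a check.

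The ligand genes were at their highest in the resting zone and at or near 0 in the proliferative zone. *Clu* (ENSMUSG00000022037, chromosome 14: 65968483 to 65981547) stood at 118, 76.1, 151 and 78.5 CPM in the resting zone of mice 1, 2, 6 and 13, from 39, 24, 76 and 16 counts. It had 0 counts in each of the 4 P libraries. All resting zone libraries therefore lay above all proliferative zone libraries. The resting zone mean was 106 ± 35.8 CPM (SD, n = 4), at least 15-fold higher than the mean of the limits of 3 counts per library in the proliferative zone.

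*Apoe* (ENSMUSG00000002985, chromosome 7: 19696109 to 19699188) was the most abundant of the genes in the resting zone. Its levels there were 204, 235, 398 and 270 CPM in mice 1, 2, 6 and 13. The P libraries had 7.77, 15.4, 3.20 and 0 CPM, from 4, 9, 2 and 0 counts, so the zones did not overlap and most proliferative zone values lay near the limit of counting. The means were 276 ± 85.4 and 6.59 ± 6.68 CPM (SD), a log2 fold change of 5.17 (SE 0.52), resting over proliferative. R6 was the highest, and without it the resting zone mean was 236 ± 33.2 CPM (SD, n = 3). P2 was the highest of its zone. Leaving it out gave a log2 fold change of 5.85 and a proliferative zone mean of 3.66 ± 3.90 CPM (SD, n = 3). In bulk tissue, fewer cells that express a gene and less RNA per cell cannot be told apart, and this holds for every value here.

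Within the resting zone libraries, *Apoe* had 1.72, 3.08, 2.63 and 3.44 counts per *Clu* count in mice 1, 2, 6 and 13. The ligands together summed to 383 ± 112 CPM (SD, n = 4) in the resting zone.

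**Figure D1:**
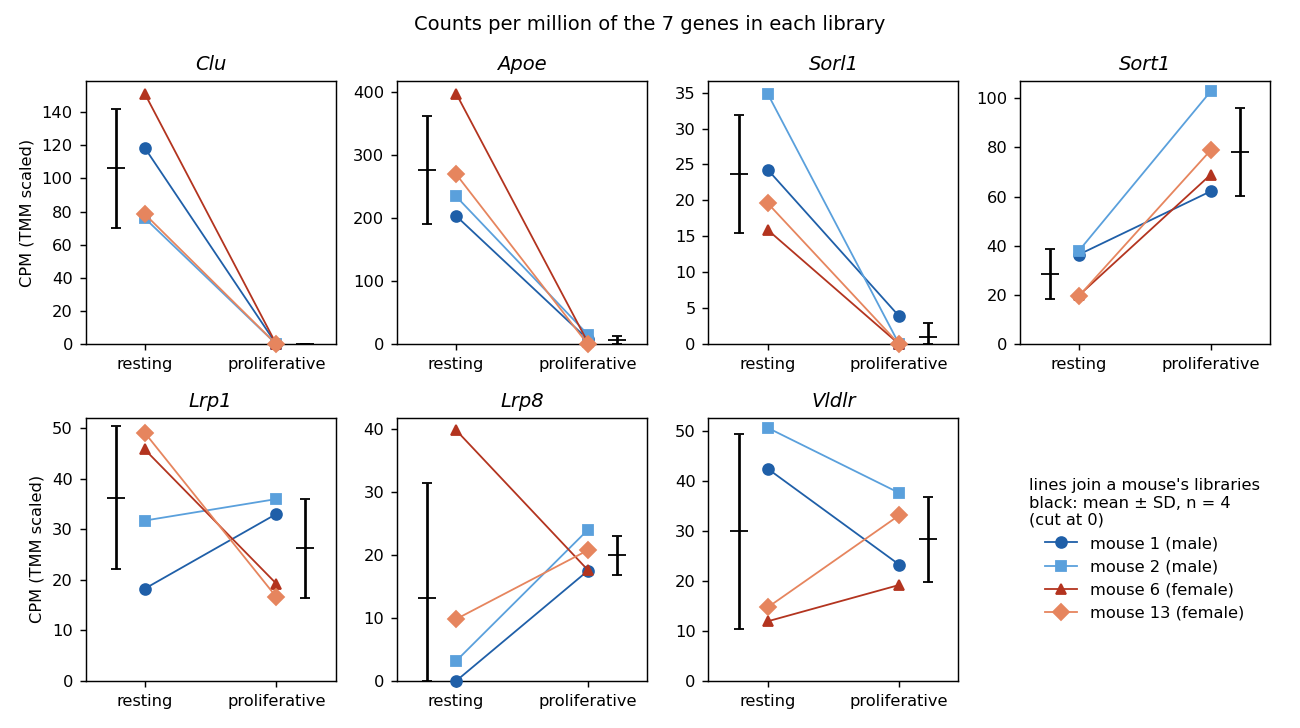
TMM-scaled CPM of each of the 7 genes in the resting and proliferative zone library of each mouse, with lines joining the libraries of a mouse and black bars for the mean ± SD (n = 4, bars cut at 0). Clu, Apoe and Sorl1 lie higher in every resting zone library, Sort1 lies higher in every proliferative zone library, and the zones overlap for Lrp1, Lrp8 and Vldlr.

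The VPS10 receptors *Sorl1* and *Sort1* differed between the zones in opposite directions. *Sorl1* (ENSMUSG00000049313, chromosome 9: 41964720 to 42124297) had 8, 11, 8 and 4 counts in the resting zone of mice 1, 2, 6 and 13, which came to 24.3, 34.9, 15.9 and 19.6 CPM. Its P libraries had 2, 0, 0 and 0 counts. The zones did not overlap, but every value was small. Over the pooled libraries, 31 counts against 2 gave a ratio of 22.5 (95% exact interval 5.73 to 194), resting over proliferative. The interval takes counts as independent and leaves out the spread between mice, so it is too narrow and is not a test. The gene was left out by the filter on low counts. In the fit that kept every gene with a count its log2 fold change was 3.94 (SE 1.05), and 6.16 without P1, which held both of the proliferative zone counts.

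*Sort1* (ENSMUSG00000068747, chromosome 3: 108284082 to 108361511) was the only one of the 7 genes that was higher in the proliferative zone in 4 of 4 mice without overlap of the zones. As given for *Clu*, such separation was common among the tested pathway genes, and it is a description only. The levels of *Sort1* were 36.5, 38.0, 19.9 and 19.6 CPM in the resting zone of mice 1, 2, 6 and 13. Those of P1, P2, P6 and P13 were 62.1, 103, 68.9 and 78.8 CPM. Each mouse had more in its proliferative zone, from 1.70-fold in mouse 1 to 4.01-fold in mouse 13. The means were 28.5 ± 10.1 and 78.1 ± 17.8 CPM (SD), with a log2 fold change of -1.44 (SE 0.39). Leaving out each library in turn gave log2 fold changes of -1.63 to -1.29.

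Both VPS10 genes overlap the exons of an annotated gene on the opposite strand, *Gm16214* by 185 bases at *Sorl1* and *Gm12523* by 338 bases at *Sort1*. *Gm16214* had 2 counts in the resting and 1 in the proliferative zone, and *Gm12523* had 3 and 12. The strand setting of the counting is not given in the sources used here. In the female libraries 18683 counts fell on *Tsix* and 1367 on *Xist*, its partner on the opposite strand, with 15 and 1 in the male libraries. Of 38 pairs of a pathway, marker or likeness gene with an opposite partner in the table, the partner held more counts in 11 and the gene in 27. Some partners had no counts or a short overlap, such as *Mir5627* with 14 bases and *Catsper2* with 18. The tally therefore cannot tell one strand setting from the other. The difference between gene and partner was large in some pairs of abundant genes, chosen after their values were seen. In the proliferative zone 60689 counts fell on *Tcfl5* and 1342 on the collagen gene *Col9a3*, and 13099 on *Nt5dc1* and 392 on *Col10a1*. In the resting zone 4502 fell on *Apex2* and 420 on *Alas2*. Other pairs ran the other way, such as *Pth1r* with 219 and 845 counts in the resting and proliferative zone. Its partner *Myl3*, which overlaps it by 95 bases, had 0 and 4. Whether the counting ran with the strand setting opposite to that of the library kit was not tested. With such a setting the counts of a gene would hold only those of its reads that lay on the other strand, and this limit covers the 7 genes, the pathway genes, the marker lists and the library totals alike. Reads of a gene and of its opposite partner cannot be told apart here.

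The LDL receptor family members had no shared direction. *Lrp1* (ENSMUSG00000040249, chromosome 10: 127538161 to 127621148), which takes up many ligands and proteases, stood at 18.2, 31.7, 45.8 and 49.1 CPM in the resting zone of mice 1, 2, 6 and 13. Its P levels were 33.0, 35.95, 19.2 and 16.6 CPM. It was higher in the proliferative zone of both males and in the resting zone of both females. The zones overlapped, with means of 36.2 ± 14.1 and 26.2 ± 9.70 CPM (SD) and a log2 fold change of 0.42 (SE 0.45).

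*Vldlr* (ENSMUSG00000024924, chromosome 19: 27216484 to 27254231), a receptor for ApoE-rich lipoproteins and for reelin, had the reverse arrangement. Its resting zone levels were 42.5, 50.7, 11.9 and 14.7 CPM in mice 1, 2, 6 and 13, so that both males lay above both females. Its proliferative zone levels were 23.3, 37.7, 19.2 and 33.2 CPM. The means of 30.0 ± 19.5 and 28.3 ± 8.54 CPM (SD) differed by less than either SD, with a log2 fold change of 0.10 (SE 0.52), whose sign was not stable when libraries were left out (-0.30 to 0.39).

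*Lrp8* (ENSMUSG00000028613, chromosome 4: 107802261 to 107876840) encodes the other reelin receptor. Of the members with more than 3 counts in every P library, it had the smallest SD relative to its mean in the proliferative zone. There it stood at 17.5, 24.0, 17.6 and 20.7 CPM in mice 1, 2, 6 and 13. In the resting zone it had 0, 1, 20 and 2 counts, or 0, 3.17, 39.8 and 9.81 CPM. Only R6 lay above the proliferative zone, and the other 3 lay below all 4 of its libraries. The means were 13.2 ± 18.2 and 19.9 ± 3.07 CPM (SD). The gene failed the filter, and in the fit that kept every gene with a count the log2 fold change was -0.65 (SE 0.71) with all libraries and -2.65 without R6. In that library the summed chondrocyte markers stood at 19447 CPM, against 7442 to 10261 CPM in the other resting zone libraries, and their part in the *Lrp8* value was not tested.

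Of the 7 genes, 5 passed the filter on low counts in the fit across 3793 genes. A gene was called when its Benjamini-Hochberg adjusted p in edgeR's quasi-likelihood test was below 0.01 and its log2 fold change was beyond 1. In the resting direction 11.0% of all tested genes met this rule, and in the proliferative direction 6.93% did. Because the 7 genes had been chosen on this contrast, whether they met the rule says nothing about them and is not given. *Clu*, with 0 counts in every P library, passed the filter through its R libraries alone. In the fit to all 17492 genes with a count, 4.74% of genes were called higher in the resting and 2.68% in the proliferative zone.

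Levels of different genes were compared per kilobase of exon. In the resting zone *Apoe* led with 129 ± 39.9 CPM per kb, followed by *Clu* with 30.9 ± 10.4, and the lowest *Apoe* value (95.2) exceeded the highest *Clu* value (44.0). *Clu* in turn lay above *Sort1*, which had 3.77 ± 1.34 CPM per kb. The next neighbors in the order, *Sort1*, *Vldlr* (2.98 ± 1.94), *Sorl1* (2.09 ± 0.73), *Lrp1* (2.04 ± 0.80) and *Lrp8* (1.25 ± 1.73), did not differ from each other beyond their spread. In the proliferative zone *Sort1* led with 10.3 ± 2.35 CPM per kb, and its lowest value (8.21) lay above the highest *Apoe* value (7.21). *Apoe* (3.08 ± 3.13), *Vldlr* (2.81 ± 0.85), *Lrp8* (1.90 ± 0.29) and *Lrp1* (1.48 ± 0.55) overlapped, and *Sorl1* (0.086 ± 0.17) and *Clu* (0) came last (SD). RNA had been amplified from its poly(A) end in 2 rounds, so counts need not grow with the full length of a transcript and the order rests on that assumption.

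**Figure D2:**
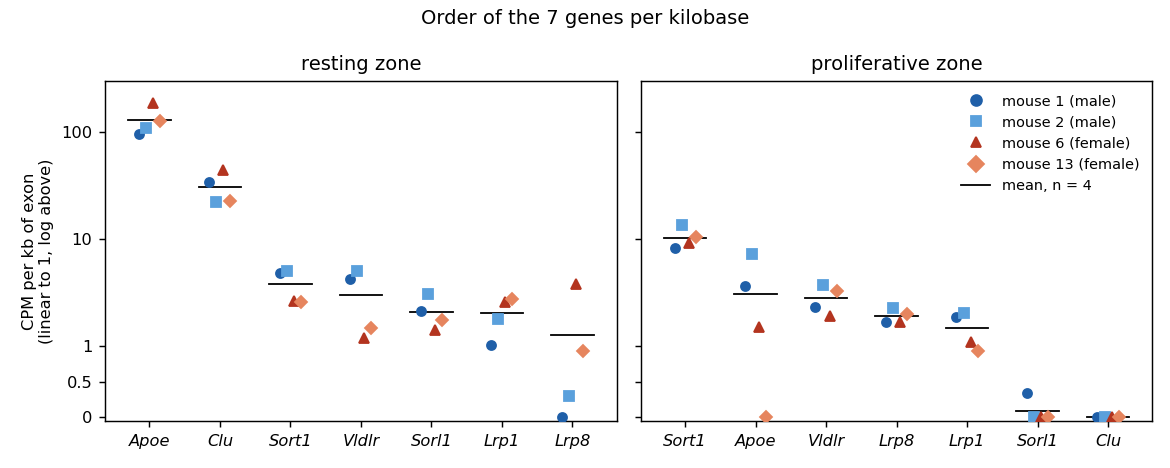
CPM per kilobase of exon (axis linear up to 1 and logarithmic above) of the 7 genes in the 4 libraries of each zone, ordered by the mean, which is drawn as a black line. Apoe and Clu stand apart from the receptors in the resting zone, whereas Sort1 leads and Clu is at 0 in the proliferative zone.

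The 5 receptors together summed to 132 ± 19.8 CPM (range 113 to 158) in the resting zone and 154 ± 32.7 CPM (range 125 to 200) in the proliferative zone (SD), so their sum overlapped between the zones while its makeup differed. The ratio of *Sort1* to *Lrp1* counts within a library, which does not depend on scaling, was 2.00, 1.20, 0.43 and 0.40 in the resting zone of mice 1, 2, 6 and 13, and 1.88, 2.86, 3.58 and 4.75 in the proliferative zone. The range of the zones overlapped through mouse 1. The ratio of *Sorl1* to *Sort1* counts was 0.67 to 1.00 in the resting zone and at most 0.063 in the proliferative zone.

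Sex had not been used to choose the genes and was tested. The fit took all libraries as independent, although those of the same mouse are not, so its p-values and SEs for sex can be too small. Across both zones none of the 7 genes passed edgeR's test between female and male mice, the lowest unadjusted p being 0.066, for *Vldlr*. Over all genes 2 of 3793 passed it (0.0527%). The largest differences in size were those of *Lrp8*, with means of 22.0 CPM in females and 11.2 CPM in males (log2 difference 1.16, SE 0.75, adjusted p = 0.91 in edgeR's fit that kept every gene with a count), and *Sorl1*, with 8.89 and 15.8 CPM (log2 difference -1.06, SE 0.95, adjusted p = 0.91 in the same edgeR fit). *Vldlr* had 19.8 and 38.6 CPM (log2 difference -0.98, SE 0.49, adjusted p = 0.72, edgeR). *Clu* and *Apoe* had 57.4 and 48.6 CPM and 168 and 115 CPM.

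Whether the difference between zones itself differed between the sexes was tested with an interaction term in edgeR. For *Lrp1* the log2 fold change, resting over proliferative, was 1.83 (SE 0.84) higher in females than in males (adjusted p = 0.75, edgeR). For *Vldlr* it was lower in females, with an interaction of -1.53 (SE 0.90, adjusted p = 0.83, edgeR). *Apoe*, which had 0 to 2 counts in the female and 4 to 9 in the male proliferative zone libraries, had an interaction of 2.85 (SE 0.97, unadjusted p = 0.013, adjusted p = 0.72, edgeR). *Lrp8* had one of 4.11 (SE 1.68, unadjusted p = 0.014, adjusted p = 0.73, edgeR) in the fit that kept every gene with a count, where R6 held 20 of its 23 resting zone counts. The interactions of *Sort1* and *Sorl1* were -0.73 (SE 0.77) and 2.24 (SE 2.098). That of *Clu* could not be estimated in edgeR, since its proliferative zone held no counts, and was -0.18 in limma voom (adjusted p = 0.9964), which adds an offset to counts of 0. None passed the test, and with 2 mice per sex the intervals are wide. Over all 3793 genes the term called 0 (0%) in edgeR and 0 in limma voom with the mouse as a random block, with 250 genes at an unadjusted p under 0.05 in edgeR.

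Other genes of the same pathways were taken from 5 lists drawn up by function but with earlier results of these data known, so their calls and medians are not independent evidence of a direction. Of 105 listed genes, 89 had a count and 34 were tested, of which 6 passed the test as higher in the resting zone and 5 as higher in the proliferative zone, beside the 11.0% and 6.93% of all genes. The median log2 fold change of the 34 was 0.33, and that of all 3793 genes was 0.08. With the mouse as a block the numbers were 7 and 4.

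Among 20 genes of the LDL receptor family and its partners, 5 were tested and 1 was called. *Ldlrad3*, a small membrane protein with LDL receptor class A repeats, stood at 15.2, 3.17, 5.97 and 0 CPM in the resting zone and at 68.0, 164, 147 and 137 CPM in the proliferative zone of mice 1, 2, 6 and 13. The log2 fold change was -4.23 (SE 0.57, edgeR adjusted p = 0.00032), and the call was kept when each library was left out. Without R1 the log2 fold change was -5.01. *Lrp4*, which binds the Wnt antagonist sclerostin, did not pass in the fit without a block (log2 fold change 3.70, adjusted p = 0.014, edgeR) and passed with the mouse as a block (log2 4.30, adjusted p = 0.0014). It had 20 to 88 counts in the resting zone libraries and 24, 1, 0 and 0 in the proliferative zone libraries. The median log2 fold change of the 5 tested genes was 0.34.

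The sorting machinery had 10 tested genes of 22 listed, and 2 were called, both higher in the proliferative zone. *Vps26b* and *Vps29* encode subunits of retromer, the coat that returns VPS10 receptors from endosomes to the Golgi. *Vps29* averaged 227 ± 60.4 CPM in the R and 483 ± 76.9 CPM in the P libraries, with a log2 fold change of -1.09 (SE 0.25, edgeR adjusted p = 0.0054). *Vps26b* averaged 390 ± 112 and 832 ± 141 CPM (SD), also -1.09 (SE 0.25, edgeR adjusted p = 0.0062). Both lay just past the threshold on size, and both lost the call with library size as the only scaling (log2 -0.96 and -0.97), without R13, P2 or P6, and without R6 and P1 together. *Vps29* also lost it without R1 (edgeR adjusted p = 0.020). *Vps35*, the retromer core, had a log2 fold change of 0.02, and *Vps26a*, the paralog of *Vps26b*, did not reach the filter. *Vps29* overlaps *Fam216a* on the opposite strand by 340 bases, where 148 and 115 counts fell in the resting and proliferative zone. The median of the 10 tested genes was -0.02.

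Of 25 other apolipoprotein and lipid efflux genes, 4 were tested and 2 rose in the resting zone. *Npc2*, the soluble lysosomal cholesterol carrier, averaged 348 ± 70.8 CPM there, against 56.3 ± 26.3 CPM in the P libraries, with a log2 fold change of 2.60 (SE 0.33, edgeR adjusted p = 0.00021). *Pltp*, the phospholipid transfer protein of lipoproteins, averaged 1728 ± 510 and 483 ± 162 CPM (SD), a log2 fold change of 1.84 (SE 0.30, edgeR adjusted p = 0.00078). *Pltp* overlaps 495 bases of *Ctsa* on the opposite strand, which had 338 and 116 counts. *Apod* and *Apom*, the apolipoproteins of the list with a count besides *Apol6*, had at most 9 counts in either zone. The median log2 fold change of the 4 tested genes was 1.95.

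Of 24 other ligands of these receptors, 10 were tested, of which 4 were called higher in the resting zone and none in the proliferative zone, with a median log2 fold change of 1.03 over the 10. The macrophage, osteoclast and neutrophil markers described further on were also higher in the resting zone, by 5 of 6, 5 of 6 and 6 of 7 tested genes called, and their part in these calls and in those of *Npc2* and *Pltp* was not tested. *Grn* and *Psap* encode progranulin and prosaposin, which sortilin and LRP1 carry toward lysosomes. *Grn* stood at 908, 425, 448 and 427 CPM in the resting zone of mice 1, 2, 6 and 13, and at 138, 87.3, 68.9 and 66.4 CPM in the proliferative zone. Its log2 fold change was 2.60 (SE 0.35, edgeR adjusted p = 0.00029), in the direction opposite to that of *Sort1*. *Psap* averaged 210 ± 48.3 and 49.3 ± 23.1 CPM (SD), with a log2 fold change of 2.06 (SE 0.35, edgeR adjusted p = 0.00097).

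*Aplp2*, a paralog of the amyloid precursor protein gene *App*, was even within each zone, at 248 ± 20.8 (R) and 89.4 ± 15.03 CPM (P, SD), a log2 fold change of 1.47 (SE 0.25, edgeR adjusted p = 0.00096). *App* itself, a cargo of SorLA, had a log2 fold change of 0.59 and an edgeR adjusted p of 0.36. *Serpine2*, a protease inhibitor cleared by LRP1, stood at 817, 349, 840 and 633 CPM in the resting zone of mice 1, 2, 6 and 13. In the proliferative zone it had 57, 3, 1 and 3 counts, so that mouse 1 alone lay far from 0. Its log2 fold change was 4.31 (SE 0.83, edgeR adjusted p = 0.0020) with all libraries and 6.86 without P1, and the call was lost without P13 (edgeR adjusted p = 0.012). *Calr*, which encodes the chaperone calreticulin and is named after its values were seen, ran the other way. It stood at 161 ± 79.8 CPM in the R and 387 ± 73.3 CPM in the P libraries (SD, n = 4), without overlap of the zones, and missed the call with a log2 fold change of -1.23 (SE 0.32, edgeR adjusted p = 0.0119). It was called in the proliferative direction by edgeR when no filter on low counts was used (log2 fold change -1.44, adjusted p = 0.00037).

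Among the 14 chaperones listed, 5 were tested and 2 were called, both higher in the proliferative zone. The products of both act in the endoplasmic reticulum, whereas clusterin is secreted. Of the 13 chondrocyte markers, 8 were called in the same direction, and their part in these calls was not tested. *Serpinh1*, the collagen chaperone of the endoplasmic reticulum, averaged 87.2 ± 24.6 CPM in the R and 257 ± 39.4 CPM in the P libraries, a log2 fold change of -1.54 (SE 0.28, edgeR adjusted p = 0.0014). *Hsp90b1*, another chaperone of that compartment, averaged 38.77 ± 9.66 and 105 ± 13.1 CPM (SD), a log2 fold change of -1.40 (SE 0.32, edgeR adjusted p = 0.0060). It lost the call with the mouse as a block (edgeR adjusted p = 0.019), with library size as the only scaling (edgeR adjusted p = 0.010), without R6 and P1 together and without any one of 6 libraries, the exceptions being R6 and P1. *Hsp90b1* shares 415 bases with *1810014B01Rik* on the opposite strand, which had 241 and 1140 counts. The median of the 5 was -0.96.

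**Figure D3:**
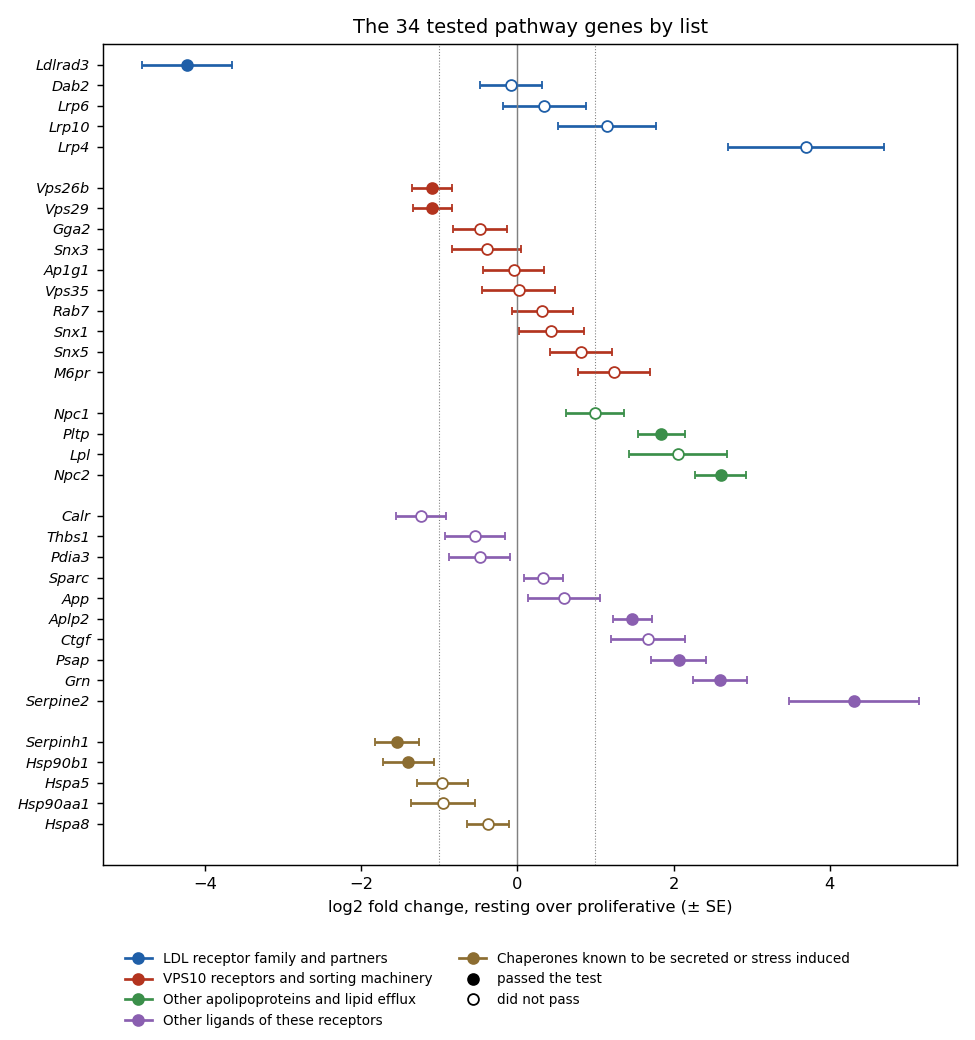
Log2 fold change (resting over proliferative, ± SE) of the 34 tested pathway genes, coloured by list, with filled points for genes that passed the test and dotted lines at -1 and 1. Calls in the resting direction fall in the lipid efflux and ligand lists, and calls in the proliferative direction in the receptor, sorting and chaperone lists.

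The summed markers of each cell type other than chondrocytes were higher in every R than in any P library, as the ligands were. The 14 macrophage markers, of which 13 had a count, 6 were tested and 5 were called higher in the resting zone, summed to between 1170 and 1434 CPM in the R libraries and between 200 and 544 CPM in the P libraries. Most of the latter was *Csf1r*, with 183, 107, 191 and 91 counts in P1, P2, P6 and P13. *Csf1r* overlaps *Hmgxb3* on the opposite strand by 873 bases, where 53 counts fell in the resting and 5 in the proliferative zone. Without *Csf1r* the list came to between 756 and 1113 CPM (R) and between 4.81 and 188 CPM (P). *Cd14* was at 0 in both zones, and *Adgre1* and *Aif1* were at 0 in the proliferative zone and had 1 and 3 counts in the resting zone.

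The osteoclast list, with 9 genes and 5 of 6 tested called higher in the resting zone, summed to between 1613 and 4755 CPM there and between 78.8 and 487 CPM in the P libraries, where *Ocstamp* and *Calcr* were at 0. The osteoblast list, with 2 of 6 tested called, summed to 9768 to 37468 and to 684 to 4091 CPM. The resting zone sum was mostly *Col1a1* and *Col1a2* (means 15162 and 7454 CPM), whereas *Sp7*, the transcription factor of osteoblasts, averaged 15.03 CPM in the R and 38.5 CPM in the P libraries and was not called. The endothelium list, with 0 of 8 tested, summed to 123 to 255 and to 0 to 17.5 CPM, with *Pecam1*, *Kdr* and *Tie1* at 0 in the proliferative zone, and the marrow stroma list, with 1 of 2 tested called, summed to 133 to 428 and to 1.60 to 50.5 CPM. Neutrophil markers, with 6 of 7 tested called, summed to 3126 to 3864 and to 0 to 532 CPM, and *Elane* and *Mpo* were at 0 in the proliferative zone. Erythroid markers, with 4 of 7 tested called, summed to 1811 to 12027 and to 0 to 1716 CPM.

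The 13 chondrocyte markers were all tested and 8 were called higher in the proliferative zone, where they summed to 34651 to 59477 CPM against 7442 to 19447 CPM in the resting zone. Of the 7 prehypertrophic and hypertrophic markers, 2 of 6 tested were called higher in the proliferative zone, with sums of 1334 to 2070 CPM there and 441 to 1588 CPM in the resting zone, where *Ihh* was at 0. The called genes were *Panx3* (means 24.4 CPM in the R and 736 CPM in the P libraries) and *Col10a1* (7.85 and 189 CPM). *Ibsp* and *Alpl* stand in this list and in the osteoblast list, and *Ibsp* ran the other way, with means of 557 and 38.5 CPM. Chondrocyte markers were thus counted in all R libraries, at lower sums than in the P libraries, and beside markers of bone and blood cells.

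Among the R libraries, R6 had the highest *Clu* and *Apoe*. It also had the highest chondrocyte and hypertrophic sums (19447 and 1588 CPM), the second highest neutrophil sum (3778 CPM), the third highest osteoclast sum (3203 CPM) and the lowest macrophage and osteoblast sums (1170 and 9768 CPM). *Apoe* is known to be made by macrophages. The part of these cell types in the values of *Apoe*, *Clu* and *Sorl1*, and in those of the pathway genes called in either direction, was not tested.

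**Figure D4:**
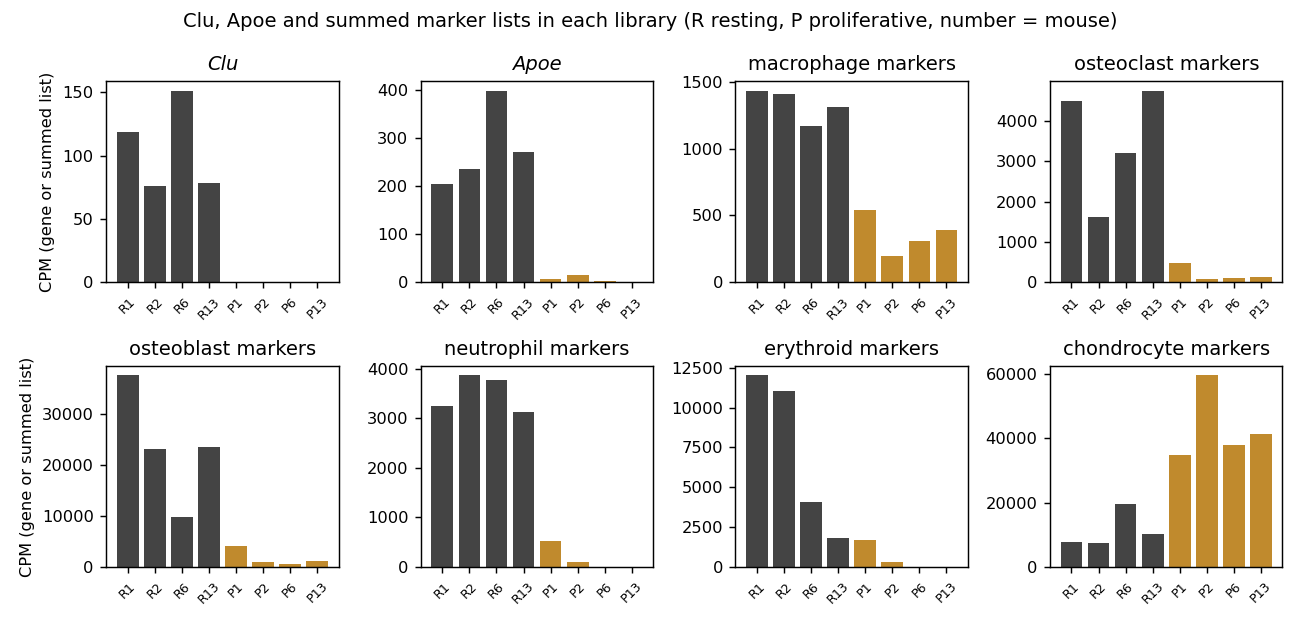
CPM of Clu and Apoe and summed CPM of 6 marker lists in each library (dark bars resting, light bars proliferative, number of the mouse after the letter). The macrophage, osteoclast, osteoblast and neutrophil sums are higher in every resting zone library, as Clu and Apoe are, and the chondrocyte sum is higher in every proliferative zone library.

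The genes most like each member were those with the smallest root mean square difference in centred log2(CPM + 1) over the 8 libraries, a measure that mostly follows the 2 zones. For *Clu* they were *Mpo* (0.71), *Gm11662* (0.79) and *Mmp28* (0.83), of which *Mpo* encodes the myeloperoxidase of neutrophils. For *Apoe* they were *Snx10* (0.65), *Runx1* (0.73) and *Car2* (0.78), of which *Snx10* and *Car2* are used by osteoclasts. For *Sort1* they were *Gm12481* (0.24), *Vps26b* (0.25) and *Ssr1* (0.26), each with a higher mean in the proliferative zone. The members had been picked on the contrast of the zones, so a similar zone difference is enough to bring a gene close. *Lrp1* had *4933428G20Rik* (0.18), *Gpr62* (0.21) and *Ankzf1* (0.24), and *Vldlr* had *4931428F04Rik* (0.33), *Atox1* (0.35) and *Rab3gap2* (0.37). The libraries share mice and depth, so these likenesses are a description over 8 libraries.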

How the data were processed

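RNA-seq counts of 8 laser-microdissected libraries were analyzed. After trimming with BBDuk, the authors aligned reads to GRCm38 with HISAT2 2.1.0, counted them per Ensembl gene with HTSeq 0.11.2 and deposited the counts as whole numbers, not normalized. RNA had been amplified by 2 rounds of in vitro transcription, so counts are not independent molecules. A second deposited table of the authors' edgeR comparison gave gene symbols only. Its 8 normalized columns, fold changes and p-values were not used. The totals were 192882 to 462044 counts per resting and 249284 to 631474 per proliferative zone library.

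Counts were tested with edgeR 4.0.16 in R 4.3.3 (TMM, filterByExpr minimum count 10, minimum total 15, quasi-likelihood test, zone only, common biological coefficient of variation 0.380). The study names no block. A call needed a Benjamini-Hochberg adjusted p below 0.01 and a log2 fold change beyond 1. Genes that failed the filter were described from the fit that kept every gene with a count. Alternatives were the likelihood ratio test, DESeq2 1.42.0, RLE factors, library size only, other filters, the mouse as a block and each library left out. Leaving out R6 and P1 together was added after seeing the data. Sex and its interaction with zone were tested in edgeR, with limma 3.58.1 as an alternative.

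The labels give the mouse of each library, so numbers pair libraries of the same animal. After removal of zone means the correlation of a mouse's libraries was 0.165, 0.0136, 0.137 and 0.0577 in mice 1, 2, 6 and 13.

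Named genes were the 7 members, every called gene of each pathway list (otherwise up to 4 with the lowest p), the 3 genes most like each member that passed the filter, and exon overlaps on the opposite strand. Other genes were named after their values were seen. The members and lists were chosen with earlier results of these data known. Coordinates and exon lengths came from GENCODE M21 and promoters from RefSeq, both on GRCm38. The exact interval of a count ratio used SciPy 1.17.1, and plots matplotlib 3.10.9. The fit was tested on simulated counts with known changes.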

Additional observations from a re-analysis of the deposited data

Results flagged for a closer look

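Of 36 groups of 4 libraries that were checked for a library far from the others, 4 had one, where chance gives about 1 in 20 for values that are not near 0. *Sorl1* stood at 3.88 CPM in P1 and at 0 in the other 3, so that any count would have set it apart. It rests on 2 counts, below the limit of 3. *Serpine2* stood at 111 CPM in the same library and at 1.60 to 12.4 CPM in the others. The osteoclast and neutrophil marker sums were also at their highest of the proliferative zone in that library (487 and 532 CPM), and their part in both values was not tested. *Grn* stood at 908 CPM in R1, with 425 to 448 CPM in the others. *Vps29* stood at 317 CPM in R2, with 188 to 206 CPM in the others.

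The zones of *Lrp1* and *Vldlr* differed in opposite directions in male and female mice. *Lrp1* was higher in the resting zone of both females and in the proliferative zone of both males (interaction 1.83 on the log2 scale, unadjusted p = 0.051, adjusted p = 0.75 in edgeR). *Vldlr* was higher in the resting zone of both males and in the proliferative zone of both females (interaction -1.53, unadjusted p = 0.12, adjusted p = 0.83 in edgeR). Neither passed the test, and the values rest on 3 to 23 counts per library.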

How the results depend on the processing

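Among all genes, the fit over genes with at least 1 count called 829 higher in the resting and 468 in the proliferative zone, against 419 and 263. A minimum of 10 counts in every library left 125 and 137 calls, and kept none of the 7 members. Leaving out each library gave 255 to 472 and 183 to 349 calls, with the lowest numbers without P2. For the pathway genes (6 and 5 calls) the fit over all genes called 12 in the resting direction, adding *Lrp4*, *Lpl*, *Ctgf*, *Cd36*, *Abcg1* and *C3*, and 7 in the proliferative direction, adding *Calr* and *Hspa5*, and a minimum of 10 counts in every library left 3 and 3. Library size only left 2 calls in the proliferative direction and moved the median log2 fold change of all genes from 0.08 to 0.20. Leaving out 1 library gave 5 to 7 and 2 to 7 calls. Those in the proliferative direction numbered 3 without R1 and 2 without R13, P2 or P6. With the mouse as a block 385 and 230 genes and 7 and 4 pathway genes were called, and no call changed other than those of *Lrp4* and *Hsp90b1* among the pathway genes. In the sex comparison 2 genes were called, 3 with the mouse as a random block and 37 over all genes with a count, and for the interaction 0, 0 and 27. The cause was not tested.

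The 5 members that passed the filter kept the sign of their log2 fold change under the alternatives run except *Vldlr*, which lay between -0.30 and 0.39. The log2 fold change of *Sorl1* moved from 3.94 to 6.16 without P1, and that of *Lrp8* from -0.65 to -2.65 without R6. At these depths, 3 counts equal 4.81 to 14.7 CPM, so *Clu* and *Sorl1* were at or below this limit in every proliferative zone library, and *Apoe* was above it only in P1 and P2.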
